A study of Canis lupus familiaris with 30 samples.

Results

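Transcripts of 5 genes that defend cells against oxidants were followed in PBMC, the peripheral blood mononuclear cells that density centrifugation of blood recovers, from adult dogs on 2 diets. The genes were CAT, GPX1, SOD1, TXNRD1 and SELENOP, 5 of 25950 genes or unnamed transcripts measured. They were read by all non-control array probes annotated to their RefSeq transcripts, which gave 12 of 43603 probes: 1 for CAT, 3 for GPX1, 1 for SOD1, 4 for TXNRD1 and 3 for SELENOP. All 12 passed the filter on dim probes.

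Per the labels 7 dogs ate a raw red meat diet high in protein and fat and 8 dogs ate a kibbled diet with carbohydrate, each for 9 weeks. Blood was taken at weeks 0, 3, 6 and 9, and week 0 was the start of feeding, so the 8 groups are meat at weeks 0, 3, 6 and 9 and kibble at weeks 0, 3, 6 and 9. Pairs of samples, 1 in Cy3 and 1 in Cy5, were compared on 30 Agilent 2-colour arrays. Of these, 14 paired a meat sample with a kibble sample of the same week (3 each at weeks 0 and 3, 4 each at weeks 6 and 9) and 16 paired a later with an earlier week of the same diet (4 each for week 9 against 0 and for week 6 against 3 on meat and on kibble). The study is titled a proof of concept, and the labels give 6 biological replicates, while each group fills 7 or 8 channels. Which dog lies on which array is not given, and p-values here refer to variation among arrays rather than among dogs.

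Aerobic cells make superoxide, which superoxide dismutases turn into hydrogen peroxide. SOD1 is the copper and zinc dismutase of the cytosol, and CAT, catalase, is a haem enzyme that splits hydrogen peroxide into water and oxygen. GPX1, glutathione peroxidase 1, removes the same peroxide with glutathione, and TXNRD1, the cytosolic thioredoxin reductase, keeps thioredoxin reduced. Both carry selenium as selenocysteine, as does SELENOP, a secreted protein with several selenocysteines that is made mostly in the liver and carries selenium in plasma. CAT, GPX1 and SOD1 are also abundant proteins of red cells.

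Per array, 20182 to 42898 spots in Cy3 and 19505 to 43610 in Cy5 were well above background. Precision is limited by how many arrays there are. A fit over all 30 arrays gave 25950 genes or unnamed transcripts a value for each comparison, with a term for a gene's own dye preference. A value was called when its Benjamini-Hochberg adjusted p in limma was under 0.05. Marker genes showed that the samples held several kinds of blood cell: the 6 monocyte and 3 T cell markers measured stood well above background in all 60 channels, and so did 6 of 7 platelet, 4 of 8 red cell and 5 of 7 neutrophil markers. In such mixed samples fewer cells of a type and less RNA per cell cannot be told apart. Each week's diet arrays shared 1 slide that held no other week, and diet and time arrays were scanned in 2 sessions.

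Levels are given first, as the log2 intensity of single channels, for the brightest probe of each gene. SELENOP varied most between groups. Its lowest, median and highest levels were 11.77, 11.97 and 12.54 on meat at week 0, against 12.23, 12.52 and 13.52 on kibble at week 0. At week 3 they were 12.001, 12.76 and 13.07 on meat, against 12.27, 12.59 and 13.22 on kibble, and at week 6 they were 11.82, 12.78 and 13.12 on meat, against 12.50, 12.74 and 13.43 on kibble. At week 9 the values were 12.63, 12.93 and 13.47 on meat, against 12.72, 12.99 and 13.21 on kibble. The meat group therefore started below every other group and stood beside kibble at week 9. All 7 meat channels of week 0 lay below all 8 meat channels of week 9. The share of all units that separate in this way was not counted, and channels that share an array are not independent.

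GPX1 had its highest levels at week 0 on both diets. The lowest, median and highest levels were 15.25, 15.90 and 16.19 on meat and 15.43, 15.95 and 16.64 on kibble at week 0, and 14.97, 15.19 and 15.61 on meat and 15.21, 15.52 and 15.90 on kibble at week 3. They were 14.94, 15.27 and 15.43 on meat and 15.30, 15.44 and 15.63 on kibble at week 6, and 15.13, 15.58 and 15.91 on meat and 15.47, 15.53 and 15.66 on kibble at week 9. The kibble channels of week 9 were the tightest group, with an SD of 0.056 over 8 channels.

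CAT was lowest on meat at week 3. Its lowest, median and highest levels there were 12.75, 13.22 and 13.49, against 13.44, 13.63 and 13.82 on kibble. At week 0 they were 12.59, 13.72 and 13.90 on meat, against 13.48, 13.74 and 13.90 on kibble. They were 12.90, 13.51 and 13.87 on meat and 13.24, 13.62 and 14.24 on kibble at week 6, and 13.20, 13.83 and 14.10 on meat and 13.49, 13.79 and 14.20 on kibble at week 9. At week 3 only 1 of 7 meat channels lay above the lowest kibble channel, while at the other weeks the ranges of the diets lay largely over each other. The share of all units with as little overlap at week 3 was not counted.

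SOD1 and TXNRD1 varied least. Median levels of SOD1 were 12.63, 12.54, 12.64 and 12.66 on meat at weeks 0, 3, 6 and 9, against 12.52, 12.36, 12.46 and 12.58 on kibble, with single channels between 12.12 and 12.95. The meat median was above the kibble median at each of the 4 weeks. Those of TXNRD1 were 11.77, 11.60, 11.76 and 11.91 on meat and 11.73, 11.87, 11.91 and 12.01 on kibble, with single channels between 11.41 and 12.29. Ordered by their medians, neighbouring groups overlapped for all 5 genes. Of the 7 steps between neighbours, 0 exceeded the larger SD of the pair for CAT, SOD1 and TXNRD1, and 1 did for SELENOP (kibble above meat at week 0) and for GPX1 (meat at week 0 above meat at week 9). No test was made on these levels, since both channels of an array share it and weeks 0 and 9 share no array with weeks 3 and 6.

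**Figure D1:**
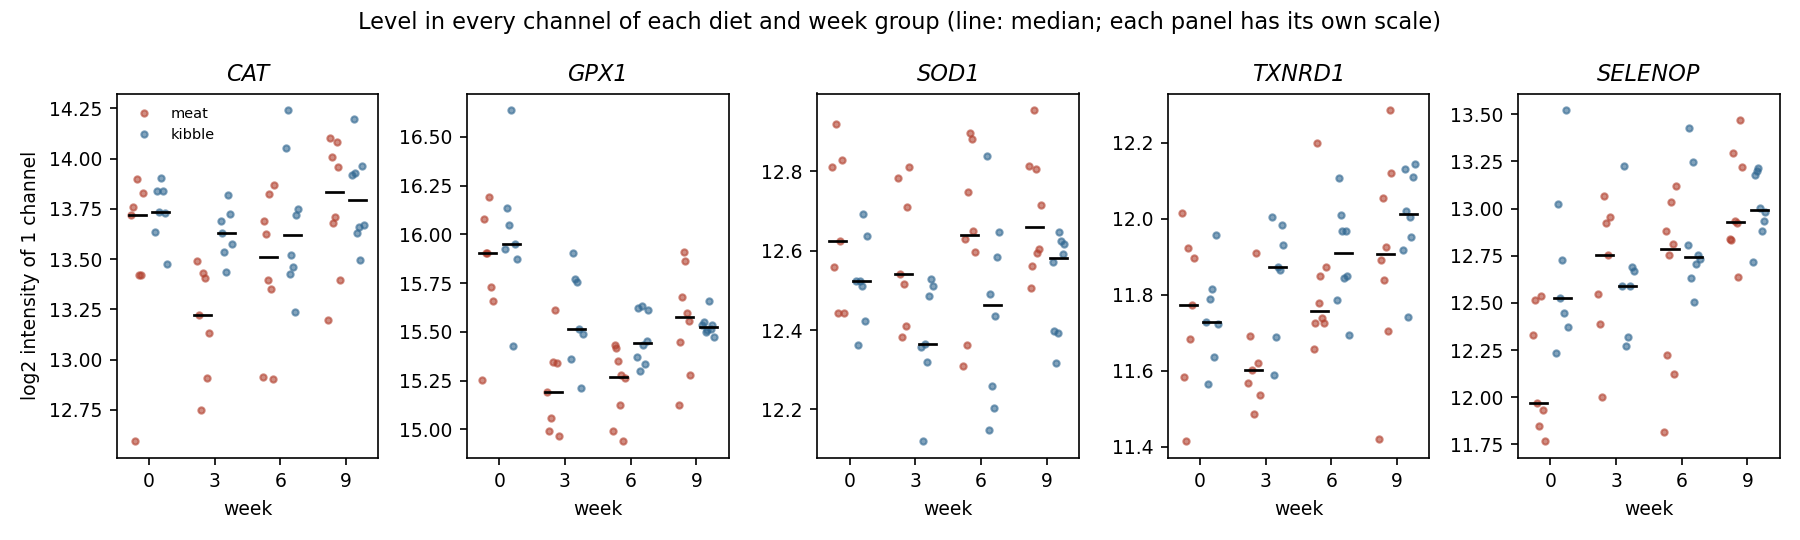
Log2 intensity of every channel for the brightest probe of each gene, by week, with meat at the left (red) and kibble at the right (blue) of each pair and a line at the median. SELENOP on meat starts at a median of 11.97 at week 0 and stands at 12.93 at week 9, and GPX1 is highest at week 0 on both diets.

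The first comparison asked how the genes differed between meat-fed and kibble-fed dogs. In the mean of weeks 3, 6 and 9 CAT was lower on meat and SOD1 slightly higher, so the 2 enzymes that need no selenium moved in opposite directions. None of the 3 selenium-dependent genes was called in this mean. The 2 calls among 5 genes stand beside 14.9% called among all genes and transcripts. Values per array below are log2 ratios with the fitted dye effect removed, and positive values mean higher on meat.

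CAT stood at -0.59, -0.47 and -0.45 on the 3 arrays of week 3 and at -0.92, -0.63, -0.14 and -0.13 on the 4 of week 6. All 7 were below 0. At week 9 the arrays split, with -0.56, -0.49, 0.18 and 0.28, and at week 0 they stood at -0.25, 0.05 and 0.23. The fitted difference was -0.48 ± 0.13 (SE, adjusted p = 0.0246 in limma) at week 3 and -0.47 ± 0.12 (adjusted p = 0.0158) at week 6, and these weeks had 6.09% and 6.23% of all units called. It was -0.05 ± 0.13 (adjusted p = 0.986) at week 0 and -0.10 ± 0.12 (adjusted p = 0.818) at week 9, where no gene of the 5 was called in limma and 0.312% and 0.582% of all units were. At an unadjusted p under 0.05 the counts were 1 of 5 at week 0 and 0 of 5 at week 9, beside 2306 and 2721 of 25950 units.

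Averaged over weeks 3, 6 and 9, CAT was 1.28-fold lower on meat (log2 -0.35 ± 0.08, lower on 9 of 11 arrays, adjusted p = 0.00252 in limma). This mean minus the week 0 difference was -0.30 ± 0.14, with an unadjusted p of 0.0385 and an adjusted p = 0.52, so a difference particular to the feeding weeks was not shown. On the 11 diet arrays of these weeks alone the mean was -0.37 (adjusted p = 0.0525 in limma), and with median centring in place of loess it was -0.27 (adjusted p = 0.107). The adjusted p ranged from 0.00109 to 0.107 over 46 other fits. At week 3 the call was also lost in 5 of 16 other settings and at week 6 in 4 of 16, with the slide as a fixed block (-0.49 and -0.46) and on the week's own arrays in both, with an adjusted p of up to 0.172 at week 3 and 0.307 at week 6 over 46 fits. With the replicate number as a block, week 3 gave -0.46 (adjusted p = 0.0515). The week 3 call was lost without any 1 of its 3 arrays (-0.49 without kibble 3/meat 3 replicate 1, -0.48 without meat 3/kibble 3 replicate 1 and -0.44 without its replicate 2, an array's name giving the Cy3 sample first). That of week 6 was lost without kibble 6/meat 6 replicate 1 (-0.33) or without meat 6/kibble 6 replicate 2 (-0.44).

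Markers of several cell types also differed between the diets, for some lists also at weeks at which CAT was not called. In the mean of weeks 3, 6 and 9, meat was lower for 7 of 7 platelet markers (median log2 -0.79), and for 4 of 6 monocyte (-0.45), 3 of 6 neutrophil (-0.53) and 4 of 6 cytotoxic lymphocyte markers (-0.29). Of 7 red cell markers 2 were lower and 1 higher (-0.07), and of 3 T cell markers 1 was lower and 1 higher (0.06). Among all units 14.9% were called in that mean. At weeks 0 and 9, where CAT was at -0.05 and -0.10, all 7 platelet markers had values below 0 as well (medians -0.61 and -0.54), and at week 9 the medians were -0.32 for monocyte and -0.50 for neutrophil markers. The cytotoxic lymphocyte medians were -0.09, -0.46, -0.54 and 0.06 at weeks 0, 3, 6 and 9. Of these 6 markers 0, 2, 4 and 0 were called lower, beside 0.312%, 6.09%, 6.23% and 0.582% of all units called. The red cell medians were 0.01, -0.16, -0.14 and 0.01 at these weeks, with 3, 5, 6 and 2 of 7 values below 0. The mean level of the platelet markers ranged from 9.89 to 10.94 on meat and from 10.76 to 11.48 on kibble at week 3, and from 9.30 to 10.30 on meat and from 10.64 to 11.77 on kibble at week 6. That of the monocyte markers ranged from 10.87 to 11.98 on meat and from 11.64 to 12.56 on kibble at week 3. Their part in the CAT result and in the other diet differences was not tested.

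SOD1 stood at 0.03, 0.25 and 0.33 on the week 3 arrays, at -0.19, 0.23, 0.31 and 0.45 on the week 6 arrays and at -0.03, 0.03, 0.21 and 0.32 on the week 9 arrays. It was thus above 0 on 9 of 11 arrays. At week 0 the values were -0.25, -0.08 and 0.39. The mean over weeks 3, 6 and 9 was 1.13-fold higher on meat (log2 0.17 ± 0.05, adjusted p = 0.0299 in limma). No single week was called, with 0.22 ± 0.09 at week 3 (adjusted p = 0.136), 0.19 ± 0.08 at week 6 (adjusted p = 0.186) and 0.10 ± 0.08 at week 9 (adjusted p = 0.725). The week 0 difference was 0.06 ± 0.09, and the mean minus week 0 was 0.11 ± 0.10 (adjusted p = 0.812). Leaving out 1 of 7 of the 11 arrays ended the call, at 0.13 to 0.17 with an adjusted p of 0.0514 to 0.131, and it held only when the array left out was meat 3/kibble 3 replicate 2, kibble 6/meat 6 replicate 1, meat 9/kibble 9 replicate 2, kibble 9/meat 9 replicate 1 or 1 of the arrays outside these weeks. The 11 arrays alone gave 0.18 (adjusted p = 0.101), against a range of 0.00542 to 0.249 over 46 fits.

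GPX1 was near the threshold in this comparison. It stood at -0.55, -0.49 and -0.08 on the arrays of week 3 and at -0.39, -0.39, -0.37 and -0.30 on those of week 6, all below 0. At week 9 it was at -0.21, 0.07, 0.08 and 0.27, and at week 0 at -0.75, 0.15 and 0.29. The fitted values were -0.41 ± 0.13 at week 3 (adjusted p = 0.0636), -0.34 ± 0.12 at week 6 (adjusted p = 0.104), 0.05 ± 0.12 at week 9 and -0.10 ± 0.13 at week 0. Week 3 was called in 5 of 46 other fits (adjusted p between 0.0361 and 0.307) and week 6 in 4 (between 0.0208 and 0.563). One of those at week 6 had the replicate number as a block (-0.37, adjusted p = 0.048). The mean over weeks 3, 6 and 9 was -0.23 ± 0.08 and missed the call by little (adjusted p = 0.0501 in limma), and it was called in 16 of 46 other fits, with the replicate number as a block among them (-0.24, adjusted p = 0.0219). In a fit of all probes, 2 of the 3 GPX1 probes were called (-0.25 and -0.23, adjusted p = 0.0442 and 0.0479) and the dimmest was not (-0.15, adjusted p = 0.262), beside 15.8% of all probes.

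TXNRD1 differed at week 3. The 3 arrays stood at -0.39, -0.35 and -0.17, and the fitted difference was -0.28 ± 0.08 (1.21-fold lower on meat, adjusted p = 0.0404 in limma). At week 6 the arrays were at -0.30, -0.13, 0.06 and 0.11 (fitted -0.08 ± 0.08) and at week 9 at -0.38, -0.12, -0.08 and 0.30 (fitted -0.03 ± 0.08), so the diets overlapped there. At week 0 they were at -0.08, 0.12 and 0.19 (fitted 0.03 ± 0.08). The mean over weeks 3, 6 and 9 was -0.13 ± 0.05 and was not called (adjusted p = 0.0806). The call of week 3 was lost in 9 of 16 other settings, with the replicate number as a block among them (-0.26, adjusted p = 0.0843), and without 7 of the 30 arrays, each week 3 diet array among them. Without these it was -0.25 (kibble 3/meat 3 replicate 1), -0.25 (meat 3/kibble 3 replicate 1) and -0.32 (meat 3/kibble 3 replicate 2), with an adjusted p between 0.113 and 0.151. The others were kibble 3/kibble 6 replicates 1 (-0.27) and 4 (-0.28), meat 6/meat 3 replicate 4 (-0.28) and kibble 6/meat 6 replicate 1 (-0.28), with an adjusted p between 0.0517 and 0.0567.

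SELENOP was not called between the diets in the mean over weeks 3, 6 and 9 (-0.02 ± 0.10, 95% interval -0.23 to 0.20, adjusted p = 0.948 in limma). Its single arrays spread widely, at -0.22, -0.08 and 0.30 at week 3, at -0.75, -0.37, 0.14 and 0.35 at week 6 and at -0.28, -0.02, 0.05 and 0.69 at week 9. At week 0 they stood at -1.13, -0.74 and 0.21. The fitted week 0 difference, -0.53 ± 0.17, was the widest of the 5 genes at that week and had an unadjusted p of 0.00485 and an adjusted p = 0.24. It was -0.31 without meat 0/kibble 0 replicate 1, the array at -1.13, and -0.80 (adjusted p = 0.0317) without its replicate 2, the array at 0.21, against an adjusted p of 0.0317 to 0.955 over all 46 fits. The other 2 SELENOP probes stood at -0.27 and -0.37 (adjusted p = 0.562 and 0.413).

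**Figure D2:**
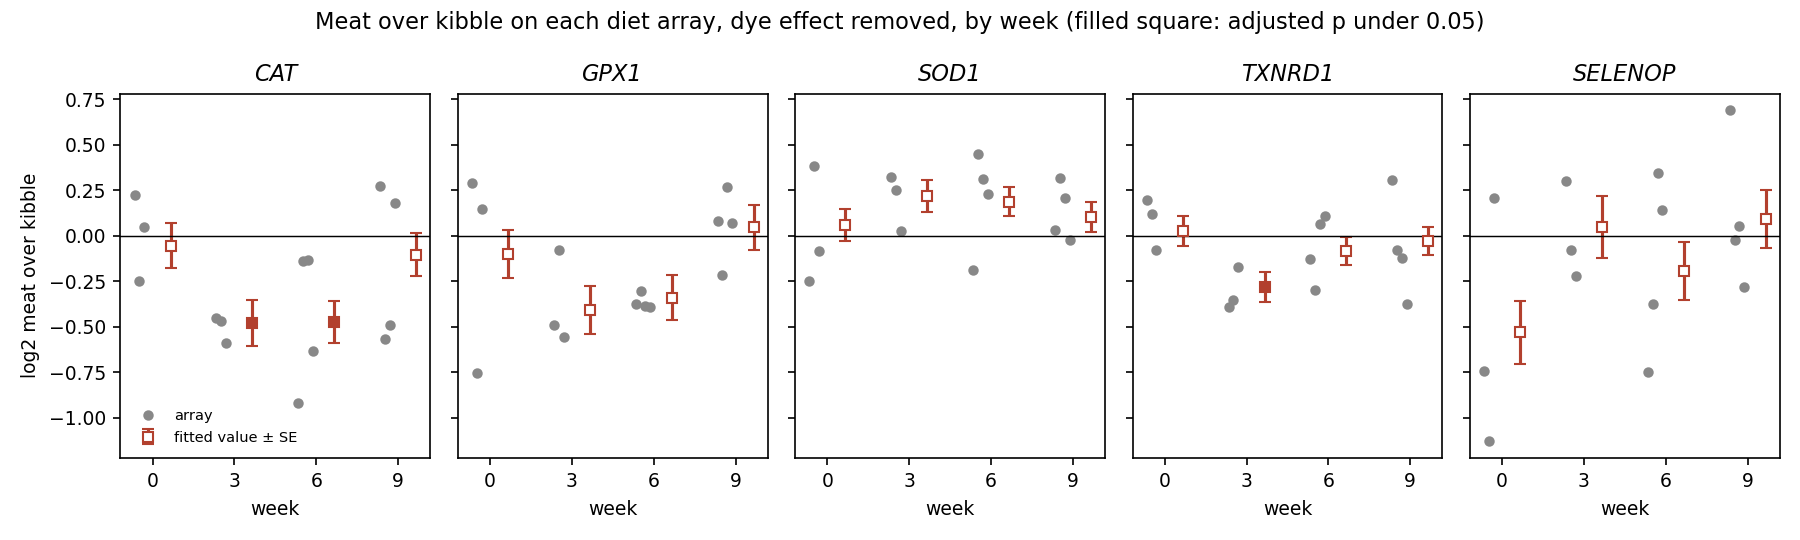
Log2 ratio of meat over kibble for each gene by week, with a grey point for each diet array (dye effect removed) and a square for the fitted value with its SE, filled where the adjusted p is under 0.05. CAT is called at weeks 3 (-0.48) and 6 (-0.47) and TXNRD1 at week 3 (-0.28), and the other squares are open.

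The second comparison asked how the genes changed within a diet between week 0 and week 9. GPX1 fell on both diets and SELENOP rose on meat. CAT, SOD1 and TXNRD1 were not called on either diet. This gave 2 calls among 5 genes on meat, where 8.04% of all units were called, and 1 of 5 on kibble, where 13.6% were. Meat arrays carried the later week in Cy3 and kibble arrays in Cy5, so fitted values rather than plain means of the arrays were used.

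GPX1 stood at -0.83, -0.57, -0.51 and 0.12 on the 4 meat arrays, week 9 over week 0, and at -1.06, -0.57, -0.37 and -0.33 on the 4 kibble arrays. Of the 8 arrays 7 were below 0. The exception was meat 9/meat 0 replicate 4. The fitted change was -0.44 ± 0.12 on meat (1.36-fold lower at week 9, adjusted p = 0.0242 in limma) and -0.59 ± 0.12 on kibble (1.5-fold lower, adjusted p = 0.00179). The difference of the changes, meat minus kibble, was 0.14 ± 0.15 (95% interval -0.16 to 0.45, adjusted p = 0.846). All 3 probes were called on both diets, at -0.44 to -0.58 on meat and at -0.59 to -0.87 on kibble, beside 8.27% and 15.1% of all probes.

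The fall of GPX1 on kibble was called in all 46 other fits, the 4 kibble arrays alone among them, and it was -1.03 with median centring. On meat it was called in 39 of 46. It was lost on the 4 meat arrays alone (-0.39, adjusted p = 0.224), with scaling between arrays (-0.41, adjusted p = 0.0559), with the slide as a fixed block (-0.49, adjusted p = 0.0662) and without meat 9/meat 0 replicate 1 (-0.35), replicate 2 (-0.43) or replicate 3 (-0.41) or without meat 0/kibble 0 replicate 2 (-0.41). The adjusted p over those fits ranged from 0.00197 to 0.224.

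Some red cell markers were also lower at week 9. Of 7 measured, 2 fell on meat (median of the list -0.25) and 4 on kibble (-0.33), none was called higher, and 3 of 7 had values above 0 on each diet. Among all units 8.04% were called on meat and 13.6% on kibble. The lowest, median and highest mean levels of the list were 7.64, 8.25 and 8.42 on meat at week 9, against 7.98, 8.20 and 8.47 on meat at week 0, so the median was not lower at week 9 there. On kibble they were 7.90, 8.19 and 8.43 at week 9, against 8.04, 8.32 and 8.76 at week 0. Of the 8 red cell markers on the array 1 did not pass the filter, with 3 of 60 channels well above background. Of 6 neutrophil markers, 6 had values below 0 on meat (median -0.24) and 0 were called. On kibble 5 were below 0 and 1 above (median -0.25), with 1 called lower. The part of red cells and of neutrophils in the GPX1 result was not tested.

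SELENOP showed the largest change of the 5 genes. On meat its 4 arrays stood at 0.82, 0.93, 1.05 and 1.06, week 9 over week 0, and on kibble at 0.09, 0.13, 0.41 and 0.90. All 8 were above 0, but 3 of the 4 kibble arrays lay below the lowest meat array. The fitted rise on meat was 1.98-fold (log2 0.99 ± 0.16, adjusted p = 0.00226 in limma), which ranked 14 of 25950 by p. On kibble the value was 0.36 ± 0.16 and was not called (adjusted p = 0.131). The difference of the changes was 0.62 ± 0.20 with an unadjusted p of 0.0038 and an adjusted p = 0.477. No unit of the 25950 was called in that contrast in limma, with 2034 at an unadjusted p under 0.05, so the change was not shown to differ between the diets.

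Each SELENOP probe was called on meat, at 0.99, 0.61 and 1.099 (adjusted p = 0.002, 0.00508 and 0.000277). On kibble 1 probe of 3, A_11_P221783, was called (0.68 ± 0.14, adjusted p = 0.00136), while A_11_P150198 stood at 0.19 ± 0.12 and the brightest at 0.36. With the mean over the 3 probes the kibble change was called for the gene as well (0.41, adjusted p = 0.0363), and so was the brightest probe without meat 0/kibble 0 replicate 1 (0.46, adjusted p = 0.0499), against an adjusted p of up to 0.921 over 46 fits. The call on meat held in 45 of 46 fits and was lost on the 4 meat arrays alone (0.90, adjusted p = 0.0886), where 0 of all units were called in limma.

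Most platelet markers were higher at week 9 beside the SELENOP change, with 4 of 7 called on meat (median 0.78) and 5 of 7 on kibble (0.69). Of the monocyte markers 1 of 6 was called higher and 1 of 6 had a value below 0 on each diet (medians 0.39 on meat and 0.29 on kibble). Among all units 8.04% were called on meat and 13.6% on kibble. The mean platelet level ranged from 10.22 to 10.86 on meat at week 9 and from 9.35 to 10.06 on meat at week 0, so these groups did not overlap. On kibble it ranged from 10.75 to 12.14 at week 9 and from 10.001 to 10.70 at week 0, so these did not overlap either. How often means of other genes separate in this way was not counted, and channels that share an array are not independent. The mean monocyte level ranged from 11.24 to 12.28 on meat at week 9 and from 10.76 to 12.04 on meat at week 0, so these overlapped. Their part in the SELENOP result was not tested.

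CAT was at 0.13 ± 0.12 on meat and 0.18 ± 0.12 on kibble for week 9 minus week 0, and neither was called. With the dye effect removed, its arrays stood at -0.03, 0.02, 0.35 and 0.37 on meat and at -0.17, 0.03, 0.16 and 0.53 on kibble. CAT has the largest dye term of the 5 genes, -0.24 ± 0.05 (Cy5 over Cy3, adjusted p = 0.00208), and 21.6% of all units had a called dye term. As measured, before removal, its meat arrays lay between 0.20 and 0.60 and its kibble arrays between -0.41 and 0.29, so the measured ratios would give the diets different directions. SOD1 was at 0.03 ± 0.08 on meat and -0.01 ± 0.08 on kibble, and its arrays lay between -0.11 and 0.12 and between -0.21 and 0.13.

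TXNRD1 stood at 0.03, 0.07, 0.13 and 0.44 on the meat arrays and at 0.07, 0.11, 0.15 and 0.23 on the kibble arrays. All 8 were above 0, and the fitted values were 0.13 ± 0.08 on meat (adjusted p = 0.358) and 0.18 ± 0.08 on kibble (adjusted p = 0.112). The 4 probes of the gene did not move alike. Probe A_11_P182813 was called on meat (0.34 ± 0.09, adjusted p = 0.0163) and on kibble (0.73 ± 0.09, adjusted p = 2.22e-05), while the other 3 lay between 0.04 and 0.13 on meat and between 0.01 and 0.18 on kibble and none was called. As measured, A_11_P182813 stood at 0.18, 0.27, 0.46 and 0.82 on the meat arrays and at 0.47, 0.66, 0.69 and 0.75 on the kibble arrays.

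The same TXNRD1 probe was also lower on meat over weeks 3, 6 and 9 (-0.28 ± 0.06, lower on 11 of 11 arrays as measured, adjusted p = 0.00149), against -0.12 to -0.13 for the others, none of them called. At week 3 the 4 probes lay close together, between -0.25 and -0.34, and 3 of them were called. All 4 are annotated to 1 transcript record, and which exons or splice forms they read was not examined here. A mean over the 4 probes was called on kibble (0.26, adjusted p = 0.0053, against up to 0.337 over 46 fits) and in the diet mean (-0.17, adjusted p = 0.00639, against up to 0.888). In both comparisons A_11_P182813 was the only probe of the 4 called on its own.

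**Figure D3:**
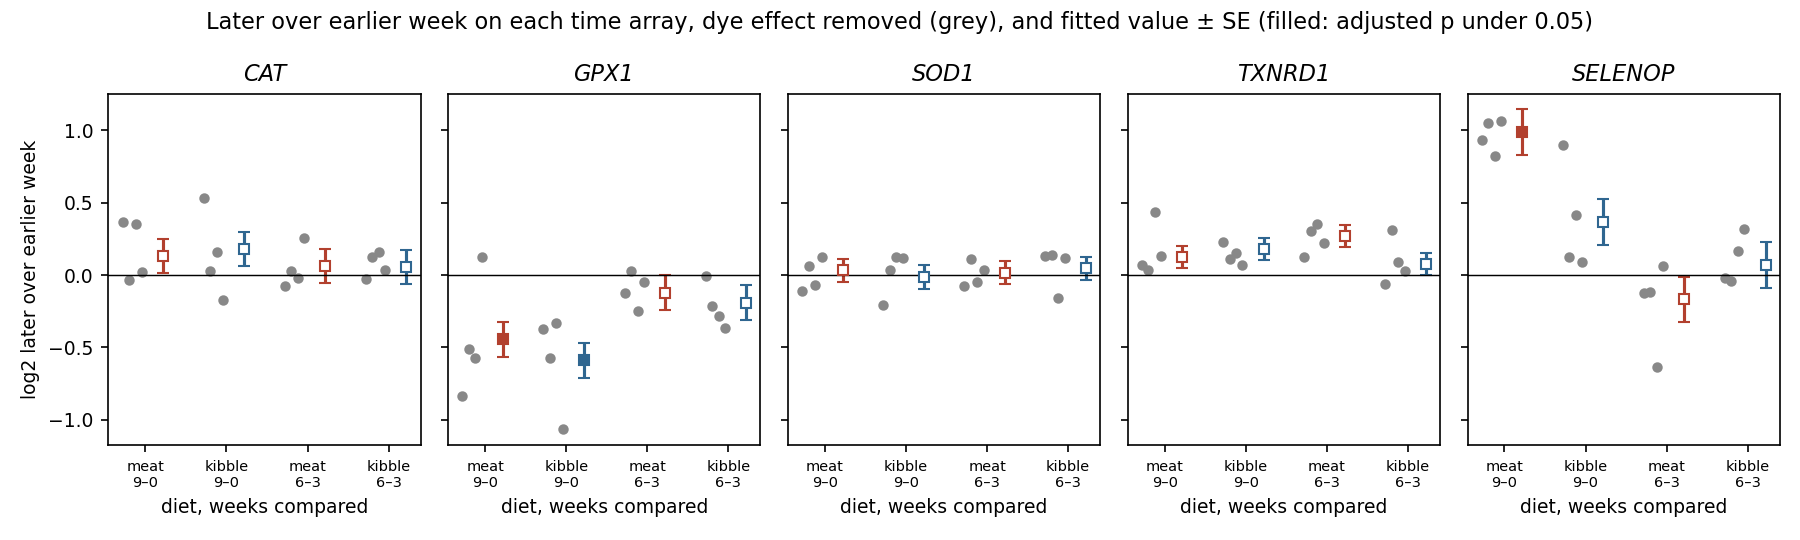
Log2 ratio of the later over the earlier week for each gene, with a grey point for each time array (dye effect removed) and a square for the fitted value with its SE, meat red and kibble blue, filled where the adjusted p is under 0.05. GPX1 falls from week 0 to 9 on both diets, and SELENOP rises on meat, where its 4 arrays lie between 0.82 and 1.06.

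**Figure D4:**
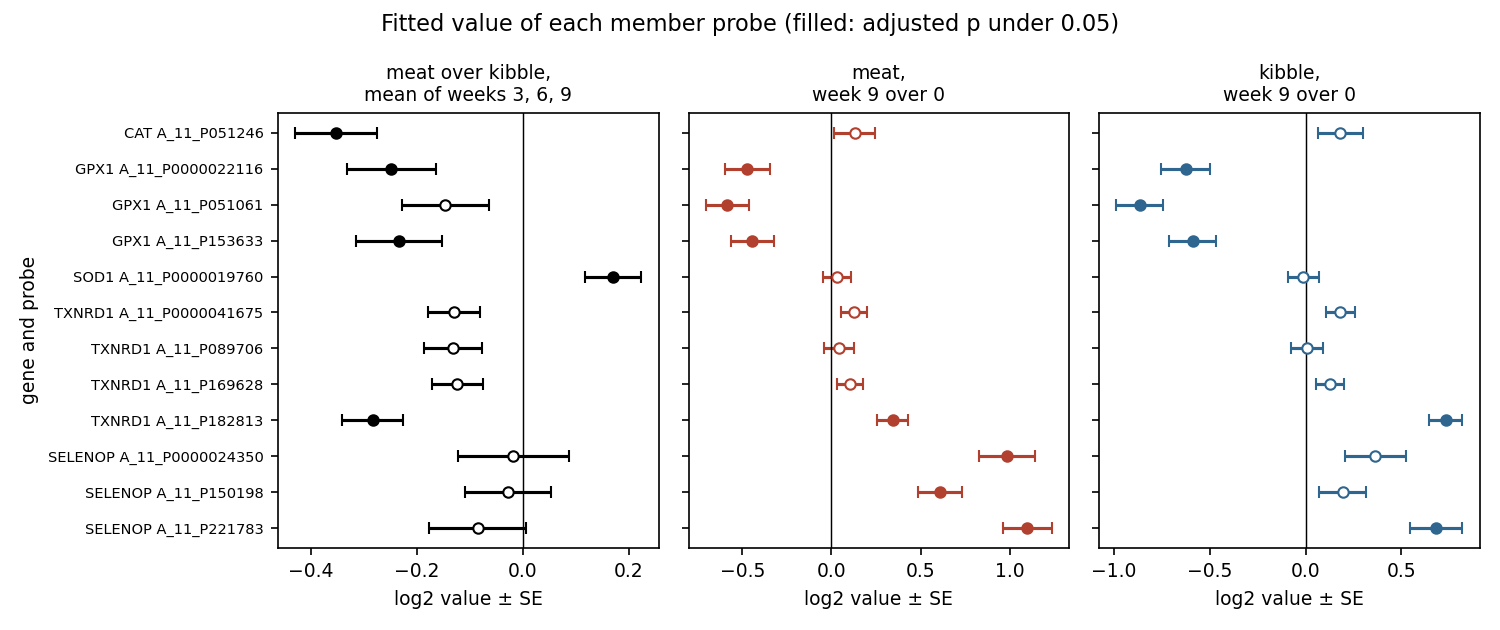
Fitted log2 value with its SE for each of the 12 probes in 3 comparisons, filled where the adjusted p over all probes is under 0.05. The GPX1 probes and the SELENOP probes each point one way over 9 weeks, while TXNRD1 probe A_11_P182813 stands at 0.34 on meat and 0.73 on kibble, apart from the other 3.

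Between weeks 3 and 6 no gene of the 5 was called in limma on either diet, where 2.25% of all units were called on meat and 0.0347% on kibble. At an unadjusted p under 0.05 it was 1 of 5 on meat and 0 of 5 on kibble, beside 4775 and 4550 of 25950 units. That 1, by the brightest probe of each gene, was TXNRD1, which stood at 0.12, 0.22, 0.30 and 0.35 on the 4 meat arrays, all above 0, and at -0.06, 0.03, 0.09 and 0.31 on the 4 kibble arrays. Its fitted change was 0.27 ± 0.08 on meat (adjusted p = 0.0543) and 0.07 ± 0.08 on kibble (adjusted p = 0.653). The meat value was called in 8 of 46 other fits, 5 of them without 1 array (0.26 to 0.30), and it was 0.57 with median centring (adjusted p = 0.0251, against up to 0.263 over 46 fits). TXNRD1 probes A_11_P169628, A_11_P089706 and A_11_P182813 stood at 0.24, 0.09 and -0.08 on meat and at 0.065, -0.125 and -0.16 on kibble. None of these was called, and they did not share a direction. SELENOP stood at -0.64, -0.12, -0.12 and 0.06 on meat, the lowest on meat 6/meat 3 replicate 3, with a fitted value of -0.17 ± 0.16 (adjusted p = 0.616). Its other 2 probes were further from 0 there, at -0.35 ± 0.12 (A_11_P150198, unadjusted p of 0.00768, adjusted p = 0.116) and -0.42 ± 0.14 (A_11_P221783, unadjusted p of 0.00503, adjusted p = 0.0953), and neither was called. As measured, with the dye effect left in, each of the 3 SELENOP probes lay below 0 on 4 of 4 meat arrays. GPX1 was at -0.12 ± 0.12 on meat and -0.19 ± 0.12 on kibble, CAT at 0.06 ± 0.12 on each diet, and SOD1 at 0.02 ± 0.08 on meat and 0.05 ± 0.08 on kibble.

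The selenium-dependent genes were then set beside CAT and SOD1. They did not form a group: between weeks 0 and 9 GPX1 fell, SELENOP rose on meat and TXNRD1 stayed uncalled for its brightest probe. On each array, with the dye effect removed, the median of GPX1, TXNRD1 and SELENOP minus the median of CAT and SOD1 was taken as a description. On the diet arrays of weeks 3, 6 and 9 this difference ran from -0.46 to 0.31 with a median of 0.05, and 7 of 11 arrays were above 0. For week 9 over week 0 it ran from -0.06 to 0.29 on meat (3 of 4 above 0) and from 0.01 to 0.10 on kibble (4 of 4). For week 6 over week 3 it lay below 0 on 4 of 4 meat arrays, between -0.22 and -0.04, and on 3 of 4 kibble arrays, between -0.18 and 0.09. Across the 30 arrays the uncentred correlation of ratios was -0.48 between CAT and SOD1, 0.48 between CAT and TXNRD1, 0.38 between CAT and SELENOP and -0.20 between GPX1 and SELENOP. These points share dogs, slides and the normalisation of each array.

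Other genes of the pathway were counted from lists. Of 17 other selenoprotein genes on the array 16 were measured. Over weeks 3, 6 and 9, 2 were higher and 2 lower on meat, with a list median of -0.02 against 0 over all units. Among all units 14.9% were called in this mean. SELENOH, a nucleolar oxidoreductase, was higher by 0.19 ± 0.04 (adjusted p = 0.00183 in limma), and SELENOK, a protein of the endoplasmic reticulum that immune cells use for calcium entry in mice, by 0.15 ± 0.03 (adjusted p = 0.00204). TXNRD3, a thioredoxin and glutathione reductase, was lower by 0.14 ± 0.05 (adjusted p = 0.0352) and the glutathione peroxidase GPX6 by 0.14 ± 0.04 (adjusted p = 0.0373). GPX6, and SELENOO below, were named after their values were seen.

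TXNRD3 is a relative of TXNRD1. It was -0.30 ± 0.07 on meat against kibble at week 3 (adjusted p = 0.0198), and between weeks 3 and 6 it rose by 0.26 ± 0.07 on meat (adjusted p = 0.0409). Cross-hybridisation between the 2 genes' probes was not tested. Between weeks 0 and 9 the 16 genes held 1 call on meat, SEPHS2 (0.33 ± 0.06, adjusted p = 0.00263), the selenophosphate synthetase that supplies active selenium for selenocysteine. On kibble they held 2, SEPHS2 (0.27 ± 0.06, adjusted p = 0.00169) and SELENOO (-0.18 ± 0.05, adjusted p = 0.0253). The list medians were -0.03 on meat and -0.01 on kibble, where 8.04% and 13.6% of all units were called. SEPHS1, the 1 gene of 12 listed for selenocysteine synthesis and insertion that was measured, was higher on meat over weeks 3, 6 and 9 (0.13 ± 0.04, adjusted p = 0.0385).

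**Figure D5:**
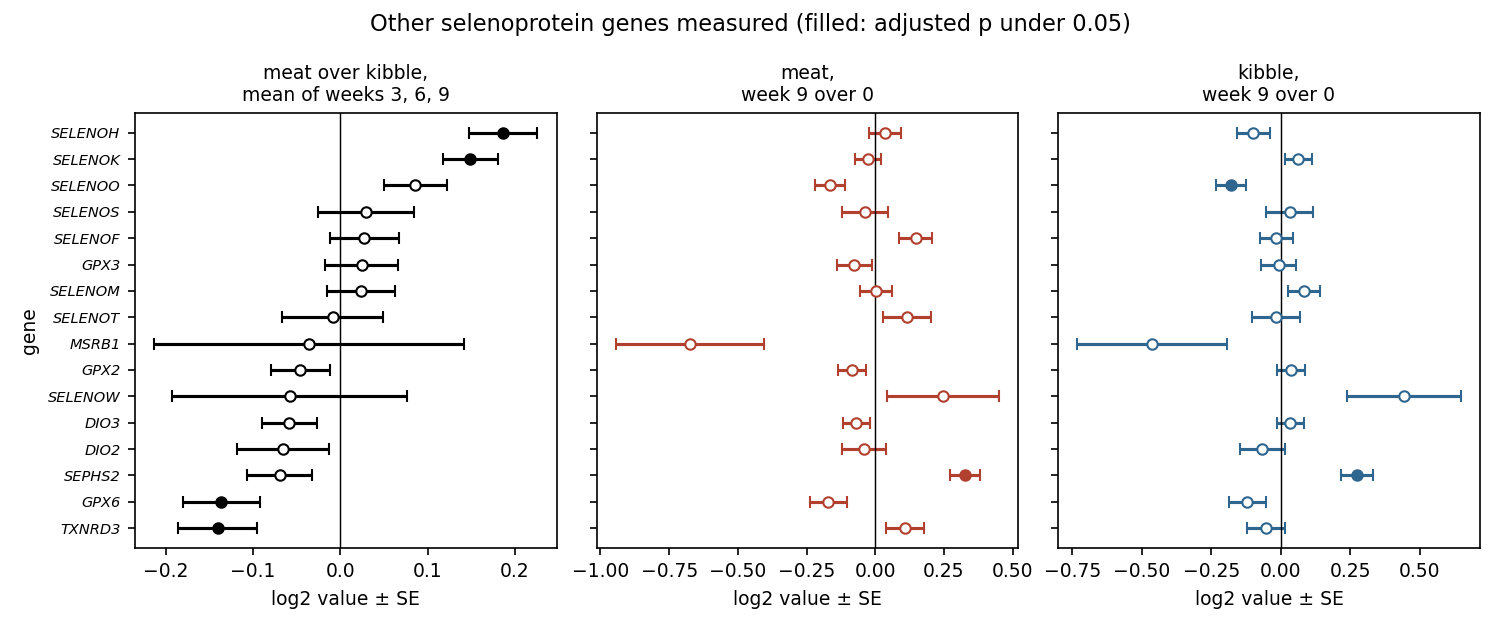
Fitted log2 value with its SE for the 16 other selenoprotein genes measured, in 3 comparisons, filled where the adjusted p is under 0.05. SELENOH (0.19) and SELENOK (0.15) are higher on meat, GPX6 and TXNRD3 (each -0.14) are lower, and SEPHS2 rises between weeks 0 and 9 on both diets (0.33 on meat, 0.27 on kibble).

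Of enzymes without selenium, 3 further dismutase and peroxiredoxin genes were measured. CCS, the copper chaperone of SOD1, was lower on meat over weeks 3, 6 and 9 (-0.25 ± 0.08, 10 of 11 arrays as measured, adjusted p = 0.0306), while SOD1 was higher. The median of the 3 was -0.04. In the mean of these weeks 14.9% of all units were called. GSTP1, a glutathione transferase and the 1 measured gene of the thioredoxin and glutathione list, was lower on meat (-0.25 ± 0.08, adjusted p = 0.0361) and rose on kibble between weeks 0 and 9 (0.43 ± 0.12, adjusted p = 0.0156). On meat its change was 0.27 and was not called. Among 3 measured NRF2 targets and iron genes, the ferritin chain FTH1 (-0.58 ± 0.13, adjusted p = 0.00422) and haem oxygenase HMOX1 (-0.25 ± 0.08, adjusted p = 0.0386) were lower on meat over weeks 3, 6 and 9, and the list median was -0.25. Of 3 phagocyte oxidase genes, which make superoxide, CYBB was lower (-0.69 ± 0.10, adjusted p = 5.75e-05) and 0 were higher, with a median of -0.27. CYBB is also 1 of the 6 monocyte markers above. CYBA, its partner chain, fell on kibble between weeks 0 and 9 (-0.32 ± 0.10, adjusted p = 0.0304). None of the 14 peroxisome genes listed was measured under its symbol.

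The genes most like each member across the 30 arrays were taken by uncentred correlation of ratios, among 1070 genes with a symbol, as a description. CAT was most like FTH1 (0.84), PPP3CA, a catalytic chain of calcineurin (0.83), and LOC403631 (0.82). GPX1 was most like INS (0.86), ADRB1 (0.85) and OPN1LW (0.85), known as genes of insulin, a beta adrenergic receptor and a cone opsin. Their probes had mean log2 levels of 7.87, 7.77 and 7.02, and OPN1LW stood well above background in 40 of 60 channels. Their fitted values for week 9 minus week 0 were -0.97, -0.94 and -0.85 on meat and -0.99, -1.20 and -0.91 on kibble. The next 2 were EPB41 (0.84) and SLC4A1 (0.82), both on the red cell list and named after their values were seen. SLC4A1 had a mean log2 level of 6.51 and was well above background in 17 of 60 channels. Of the 7 red cell markers measured, 3 had values above 0 for week 9 minus week 0 on each diet.

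SOD1 was most like EBAG9 (0.79), ZC3H15 (0.74) and SELENOH (0.71). TXNRD1 was most like BIRC2 (0.68), an inhibitor of apoptosis, FIG4 (0.66), a phosphoinositide phosphatase, and MAPRE1 (0.61), a microtubule end protein. SELENOP was most like FXYD6 (0.84), a regulator of the sodium pump, DLC1 (0.74) and ATP1B1 (0.73), a chain of the sodium pump. Between weeks 0 and 9 these 3 stood at 0.59, 0.86 and 0.64 on meat and at 0.27, 0.51 and 0.60 on kibble. Next for SELENOP came GUCY1A1 (0.72) and CTSS (0.71), which is on the monocyte list, both named after their values were seen. All arrays of a gene share dogs and slides with those of every other gene.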

How the data were processed

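The scanner files hold, per the file headers, the median intensity of each spot and of its local background in Cy3 and Cy5, read with Agilent Feature Extraction 10.10.1.1. In the deposited matrix each array has a log2 ratio for every probe. Per the submitters' processing notes the authors used limma. This matrix correlated at 0.834 to 0.992 with the ratios computed here.

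From the scanner files, background was corrected by normexp (offset 50), ratios were normalised by loess within each array, and 979 spots marked faulty over all arrays were left out, 1 of them on a member probe (GPX1, A_11_P051061, on kibble 3/kibble 6 replicate 3). A probe was kept (31691 of 43603) if 7 or more of the 60 channels had it well above background, and the brightest probe stood for its gene or accession (25950 units, 1087 with a symbol from RefSeq accessions, 2175 of all probes having one). Limma 3.58.1 in R 4.3.3 (with the data.table package, version 1.17.8) fitted a term for each group and a dye term per gene, with 23 residual degrees of freedom, two-sided and adjusted by Benjamini-Hochberg over all units within a comparison, at a threshold of 0.05. Levels are channel intensities after Aquantile. Precision depends on how many arrays there are. The fit was run on simulated data with independent noise on each array, which cannot show the effect of shared dogs or slides.

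Members, gene lists and markers were chosen with earlier results of these data known. Named are the 5 members with every probe, up to 4 called genes a list by smallest p, and the 3 genes most like each member. Alternatives were other background corrections and normalisations, filters, blocks, weights, arrays and probe summaries, and each array left out. A dye term per scan session was added after seeing the data. Sequences and genome positions of the probes were not used here.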

Additional observations from a re-analysis of the deposited data

Results flagged for a closer look

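Of 70 groups of 4 to 8 values searched for a single value far from its group (member ratios per comparison and member levels per group), 4 held one. Chance gives about 1 in 20 groups.

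SOD1 on kibble, week 6 over week 3, stood at -0.158 (log2, dye effect removed) on kibble 3/kibble 6 replicate 3, while the other 3 arrays ran from 0.1177 to 0.1417. CAT on meat at week 0 had a log2 level of 12.5941 in the Cy5 channel of meat 9/meat 0 replicate 1, while its other channels ran from 13.419 to 13.9004. GPX1 on kibble at week 9 had a level of 15.6589 in the Cy5 channel of kibble 0/kibble 9 replicate 3, and the others ran from 15.4735 to 15.5486. TXNRD1 on meat at week 6 had a level of 12.198 in the Cy3 channel of meat 6/meat 3 replicate 3, where the others ran from 11.6581 to 11.8731.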

How the results depend on the processing

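Each member's 12 comparisons were refitted in 16 other settings and with each of the 30 arrays left out. Of 2760 values 2585 kept their direction and side of the threshold, 50 lost a call, 42 gained one and 83 changed sign. None of the 83 was called. Limits are the few arrays per week, 1 dye order per diet on the time arrays, and a week that cannot be told apart from its slide on the diet arrays. The fit on the arrays joining the groups compared has no dye term for time arrays. Signal over background is lowest for TXNRD1 probe A_11_P089706 (mean log2 level 7.27, 58 of 60 channels well above background).

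In the mean difference over weeks 3, 6 and 9, CAT lost its call with median centring (-0.27) and on the joining arrays (-0.37), and SOD1 with Feature Extraction signals (0.17), median centring (0.25) and the joining arrays (0.18). GPX1 gained one with no background correction (-0.24), the deposited values (-0.22), scaling between arrays (-0.27), a filter of 30 channels (-0.23), the slide as a random block (-0.23), array weights (-0.23) and the joining arrays (-0.24). TXNRD1 gained one with the slide as a fixed block (-0.15) and the mean over probes (-0.17). For week 9 minus week 0 on meat, GPX1 lost its call with scaling (-0.41), the slide as a fixed block (-0.49) and the joining arrays (-0.39), and SELENOP on the joining arrays (0.90). On kibble the mean over probes gained SELENOP (0.41) and TXNRD1 (0.26). The cause of these changes was not tested, also for the settings built from fewer arrays.

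Whether the replicate numbers pair the arrays could not be decided, since time arrays of different groups share no sample. Deviations of 24 same-numbered pairs correlated at -0.714 to 0.8 (median 0.0638), those of other numbers had a median of -0.0713, and 4 of 16 arrays correlated best with their own number. With the replicate block, GPX1 was called in the diet mean (-0.24, adjusted p = 0.0219 in limma) and at week 6 (-0.37, adjusted p = 0.048), and the week 3 calls of CAT (-0.46, adjusted p = 0.0515) and TXNRD1 (-0.26, adjusted p = 0.0843) were lost. No other call of a member changed.

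Signs that turned, all uncalled, were these. With median centring, week 9 minus week 0 on kibble was -0.22 for CAT, -0.027 for SELENOP and -0.19 for TXNRD1, and meat change minus kibble change was 0.35 for CAT and 0.32 for TXNRD1. Week 6 minus week 3 on meat was 0.14 for GPX1 and 0.12 for SELENOP, and the difference of those changes 0.016 for SELENOP and 0.22 for SOD1. The diet difference was -0.13 (SOD1) and -0.16 (TXNRD1) at week 0, -0.047 (SELENOP) at week 3, 0.076 (TXNRD1) at week 6, 0.09 (CAT) and 0.16 (TXNRD1) at week 9 and 0.0695 (SELENOP) in the mean, and the mean minus week 0 was 0.16 (GPX1) and 0.12 (TXNRD1). With no dye term CAT was -0.052 on kibble (week 6 minus 3), 0.023 at week 9 and 0.17 in the 9 week difference of changes. On the joining arrays CAT was -0.16 (kibble, week 6 minus 3), -0.10 (kibble, week 9 minus 0) and 0.063 (week 0), and SOD1 0.0152 (kibble, week 9 minus 0), 0.0008 (6 week difference of changes) and -0.047 (week 0). That 6 week difference was -0.025 for CAT with the replicate block, -0.033 for CAT and 0.03 for SOD1 with a dye term per session (added after seeing the data), and for SOD1 0.027 with scaling and 0.013 with array weights. The slide as a fixed block gave 0.063 for CAT and -0.047 for SOD1 at week 0. SELENOP's diet mean was 0.0096 with that block, 0.0178 with scaling and 0.048 with array weights. Array weights also gave -0.0052 (SOD1) and -0.0081 (TXNRD1) at week 0, and for TXNRD1 0.0108 at week 9 and 0.0189 in the 9 week difference of changes. The mean over probes gave -0.0037 (SELENOP) and -0.0356 (TXNRD1) on kibble, week 6 minus 3, and Feature Extraction signals -0.0225 (SOD1) on meat.

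Leaving out 1 array gave these lowest and highest values. In the mean diet difference they were -0.28 and -0.20 for GPX1, -0.0851 and 0.0646 for SELENOP, 0.13 and 0.23 for SOD1, and -0.17 and -0.098 for TXNRD1. For week 9 minus 0 they were -0.57 and -0.35 for GPX1 on meat, and on kibble 0.24 and 0.46 for SELENOP, -0.0618 and 0.0316 for SOD1, and 0.15 and 0.22 for TXNRD1. For week 6 minus 3, SOD1 ran from -3e-04 to 0.0934 on kibble and from -0.0154 to 0.0641 on meat. At week 0 the diet difference ran from -0.14 to 0.0181 (CAT), -0.21 to 0.14 (GPX1), -0.0605 to 0.15 (SOD1) and -0.0223 to 0.0651 (TXNRD1), at week 3 from -0.0267 to 0.15 (SELENOP), and at week 9 from -0.23 to 0.0444 (CAT), -0.0046 to 0.13 (GPX1), -0.10 to 0.18 (SELENOP) and -0.13 to 0.0524 (TXNRD1). Differences of changes over 9 weeks ran from -0.15 to 0.0639 (CAT), -0.0541 to 0.22 (GPX1) and -0.0087 to 0.14 (SOD1), and from week 3 to 6 from -0.0757 to 0.12 (CAT) and -0.0946 to 0.0644 (SOD1). SELENOP's week 0 difference ran from -0.80 to -0.31. TXNRD1 gained its calls in the diet mean (-0.17) and on kibble (0.22) without kibble 9/meat 9 replicate 1.

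Counts of called units moved more, and are given with their range over the settings and then with 1 array left out. They were 3870 for the diet mean (1080 to 4317, 2795 to 4255), 3539 for week 9 minus 0 on kibble (1813 to 5629, 2091 to 3799) and 2087 on meat (0 to 3359, 268 to 2660). The diet counts were 81 at week 0 (0 to 88, 23 to 218), 1580 at week 3 (0 to 2132, 215 to 2070), 1617 at week 6 (1 to 3121, 138 to 2254) and 151 at week 9 (0 to 220, 42 to 195). For week 6 minus 3 they were 583 on meat (3 to 2215, 166 to 708) and 9 on kibble (0 to 436, 0 to 52). For the 9 week difference of changes the count was 0, and at most 2 with 1 array left out, and for the 6 week difference it was 0, and at most 2 over the settings. For the diet mean minus week 0 it was 0, and at most 237 with 1 array left out. Of 40 median levels 1, of SOD1, moved without normalisation between arrays.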
